A study of Mus musculus with 6 samples.

Results

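Integrins and the other receptors by which a cell holds its matrix were described as 32 genes, taken by name from a list of 14 integrin α subunits, 8 integrin β subunits, 4 syndecans and 6 further receptors. All 32 were found among the 21959 genes of the count table. RNA was sequenced from MPC, a mouse gastric adenocarcinoma line, and from MPC-PTX, the line raised from it by over 30 cycles of paclitaxel (PTX), with 3 libraries per line. Both lines carry the label CDH1-/-;Trp53-/-, and the study's methods call them MTC and MTC-R and trace them to gastric organoids made from a floxed mouse with Mist1-CreER. Each line passed through a selection of single clones, so each stands for 1 clone. The titles and library names of the 6 libraries name no batch. The comparison asks which matrix receptors differed in RNA between the drug-resistant line and its parent. Whether the replicates came from separate cultures is not in the labels, so p-values measure the spread between these libraries, which may be technical. In such bulk RNA, fewer cells that express a gene and less RNA per cell cannot be told apart.

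An integrin is a pair of 1 α and 1 β subunit, and the pair decides which matrix protein is bound: collagens, laminins, or proteins with an RGD motif such as fibronectin and vitronectin. Inside the cell, talin and kindlin bind the β tail and link it to actin. Syndecans carry heparan sulfate chains and act beside integrins, dystroglycan binds laminin through its sugar chains, DDR1 and DDR2 are collagen-binding tyrosine kinases, CD44 binds hyaluronan, and CD47 and CD36 bind thrombospondin. In gastric epithelium the laminin- and collagen-binding integrins hold cells to the basement membrane.

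Total counts ran from 16574580 to 23148182 per library. The targeted genes still had reads in both lines, 2217 to 3068 counts for Cdh1 and 63 to 142 for Trp53, and gene totals do not tell which exons were read. General epithelial markers fitted an epithelial line, with 10 of 10 detected. In the test described below 9 of 10 were called lower in MPC-PTX, beside 15.6% of all tested genes. Their summed level was 9820 to 11300 CPM (counts scaled to library size) in MPC and 5950 to 6130 in MPC-PTX. Leukocyte markers summed to 12.0 to 13.5 CPM and 9.80 to 11.0 CPM, mostly from Cd68, with Cd3d at 0. Megakaryocyte markers summed to 10.4 to 14.6 CPM and 6.12 to 7.30 CPM, mostly from Ppbp, with Gp9, Gp1bb, Gp6 and Treml1 at 0. Fibroblast markers summed to 9.83 to 10.9 CPM and 8.71 to 9.92 CPM, and endothelial markers to 3.45 to 4.89 CPM and 3.20 to 3.50 CPM. By chi-square per gene between the counts of 2 libraries, MPC replicate 3 differed most, by 61.1 from replicate 1 and 32.4 from replicate 2. MPC replicates 1 and 2 differed by 15, and pairs of MPC-PTX libraries by 1.83 to 3.36. The ratio of MPC replicate 3 to replicate 1 moved with GC content (Spearman's rho -0.548 over 11776 genes) and with transcript length (0.465). This ratio does not tell which of the 2 libraries departed. The biological coefficient of variation was 17.94% in MPC and 3.01% in MPC-PTX.

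The promoters of 4 receptor genes are shown because these genes carry the changes described below: Itga2b and Itga5 were higher in MPC-PTX, and Itgb6 and Sdc3 were lower. Each run holds the 250 bases before and the 50 bases after the RefSeq start, 5′ to 3′ on the gene's strand, in build GRCm38.p6. Capitals mark the GC box GGGCGG or its reverse complement, which is bound by Sp1-like factors.
Itga2b, chr11:102469834-102470133, minus strand: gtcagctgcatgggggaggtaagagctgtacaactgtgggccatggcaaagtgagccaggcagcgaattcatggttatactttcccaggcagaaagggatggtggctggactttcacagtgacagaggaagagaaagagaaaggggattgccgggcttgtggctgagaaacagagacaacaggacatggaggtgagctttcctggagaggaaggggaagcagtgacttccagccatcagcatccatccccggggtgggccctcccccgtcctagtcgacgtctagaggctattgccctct
Itga5, chr15:103366742-103367041, minus strand: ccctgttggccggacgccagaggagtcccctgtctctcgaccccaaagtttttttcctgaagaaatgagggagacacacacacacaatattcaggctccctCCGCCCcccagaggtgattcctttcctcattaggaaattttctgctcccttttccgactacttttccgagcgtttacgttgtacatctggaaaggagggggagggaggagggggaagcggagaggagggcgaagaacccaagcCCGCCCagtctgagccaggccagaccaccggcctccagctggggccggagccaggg
Itgb6, chr2:60722554-60722853, minus strand: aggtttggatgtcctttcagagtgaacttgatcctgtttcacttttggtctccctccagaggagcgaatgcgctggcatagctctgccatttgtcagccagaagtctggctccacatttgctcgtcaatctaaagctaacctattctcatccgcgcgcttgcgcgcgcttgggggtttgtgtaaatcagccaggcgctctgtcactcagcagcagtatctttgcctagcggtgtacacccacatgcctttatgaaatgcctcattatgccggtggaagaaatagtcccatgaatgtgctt
Sdc3, chr4:130792287-130792586, plus strand: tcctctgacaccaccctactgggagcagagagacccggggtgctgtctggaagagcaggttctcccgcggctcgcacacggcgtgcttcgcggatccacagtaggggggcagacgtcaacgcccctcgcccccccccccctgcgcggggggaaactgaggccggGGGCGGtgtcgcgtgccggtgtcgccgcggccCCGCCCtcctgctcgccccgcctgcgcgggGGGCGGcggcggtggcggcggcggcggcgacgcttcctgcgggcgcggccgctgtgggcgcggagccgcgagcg

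A window was found for 25 of the 32 receptor genes and for 10 of the 12 that differed between the lines. The GC box was in 8 of those 10, against 35.6% of all 32817 windows of the same length. Among tested genes that were not called, it was in the windows of Itgav, Itgb1, Itgb5, Cd36, Cd44 and Ddr1. The windows of Itga1, Itga10 and Itgb8 lacked it. The windows of Cd47, which is 1 of the 10, and of Cd36 lay 55121 and 52905 bases from the gene start in GENCODE. In the runs above the GC box stood 3 times in Sdc3 and 2 times in Itga5, and these letters were not in the windows of Itga2b and Itgb6. On both strands, 8 further motifs were searched: the CCAAT box (CCAAT), the TATA box (TATAAA), the AP-1 site (TGANTCA), the E box (CACGTG), the CRE (TGACGTCA), the ETS site (CCGGAAG), the GATA site (AGATAA) and the RUNX site (TGTGGT). The CCAAT box was in 2 of the 10 windows against 37.4% of all windows, the ETS site in 2 of 10 against 8.86%, and the other six were in 0 of 10 against 1.79% to 16.8%. The window of Sdc3 was 77.7% G and C with 44 CpG steps, and that of Itgb6 was 50.3% with 12, beside a median of 52.7% G and C over all windows. A match is a match of letters, not a binding site.

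Of the 32 genes, 24 passed the filter on low counts, which keeps a gene with about 10 counts or more in 3 libraries, and were tested among 11795 genes. With edgeR's quasi-likelihood test and a Benjamini-Hochberg adjusted p below 0.05, 4 rose in MPC-PTX (16.7% of those tested) and 8 fell (33.3%), beside 14.1% of all tested genes that rose and 15.6% that fell (29.7% in either direction). The genes that rose were Sdc2, Itga2b, Itga5 and Cd47. The genes that fell were Sdc3, Itgb2, Itgb6, Itga2, Sdc1, Dag1, Sdc4 and Itga3. The median log2 fold change of the 24 was -0.13, beside 0.04 over all tested genes. The lines did not overlap for 17 of the 24, 6 higher and 11 lower in MPC-PTX, and the same was true of 46.9% of all tested genes. The rule of the study's methods takes a change beyond 1 on the log2 scale in either direction together with an unadjusted p below 0.05. The p was edgeR's here and DESeq's in the study, so these calls are not the study's own. Under this rule Sdc2 and Itga2b were higher and Itgb2, Itgb6, Sdc3 and Itga1 were lower, beside 3.77% of all tested genes higher and 4.34% lower.

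**Figure D1:**
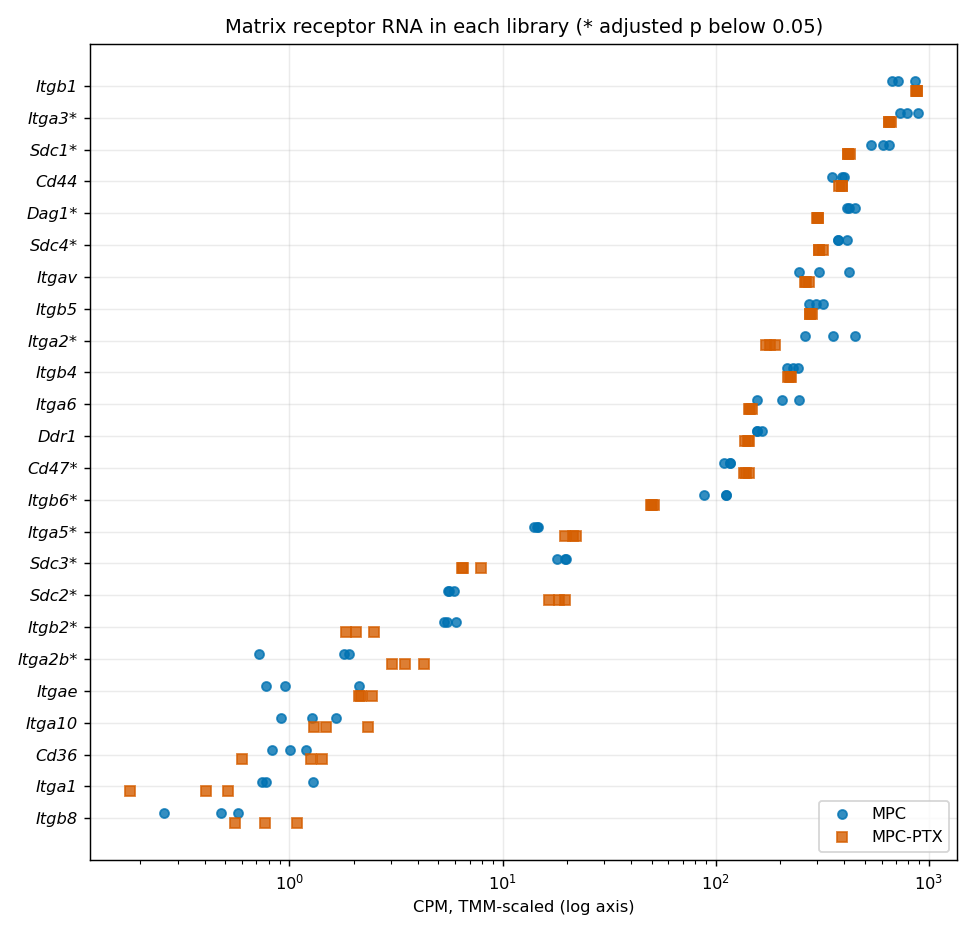
CPM scaled by TMM (log axis) of each of the 24 tested matrix receptor genes in each library, ordered by mean level, with MPC as blue circles and MPC-PTX as orange squares; an asterisk marks an adjusted p below 0.05. Mean levels in MPC-PTX ran from 0.3655 CPM for Itga1 to 877 CPM for Itgb1, and the MPC-PTX libraries lay closer together than the MPC libraries for most genes above 100 CPM.

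**Figure D2:**
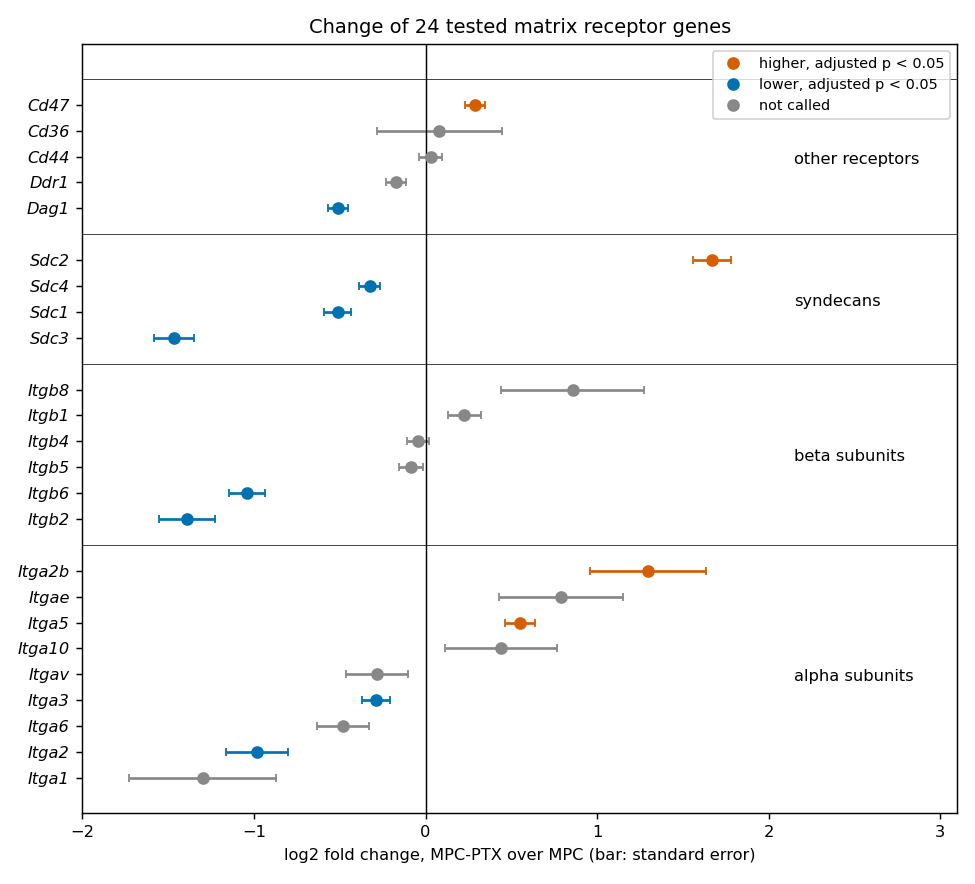
Log2 fold change of MPC-PTX over MPC (horizontal axis) with its standard error for the 24 tested genes, grouped by class; orange marks higher, blue lower and grey not called. All 4 syndecans were called, beside 29.7% of all tested genes, with Sdc2 at 1.67 and Sdc3 at -1.47. No β subunit was called higher, beside 14.1% of all tested genes, though Itgb1 had an unadjusted p of 0.0513 (edgeR).

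Of the 3 tested collagen-binding α subunits, 1 fell, Itga2, beside 15.6% of all tested genes. Itga2, the subunit that with Itgb1 forms the epithelial collagen receptor α2β1 (chromosome 13 of GRCm38, 114833081 to 114932100), had 263, 355 and 452 CPM in MPC and 171, 190.1 and 180.4 CPM in MPC-PTX. Every MPC-PTX library was below every MPC library, and MPC replicate 3 was the highest of the 6. Itga2 fell by 0.98 on the log2 scale (standard error 0.18, adjusted p = 0.00834, edgeR), with a fitted ratio of MPC-PTX to MPC of 0.506. Without MPC replicate 3 it fell by 0.83 (adjusted p = 0.00221). Itga1, which forms another collagen receptor with Itgb1 and lies beside Itga2 on chromosome 13 (114953096 to 115101964), was low, with 14, 15 and 27 counts in MPC and 12, 9 and 3 in MPC-PTX. Scaled by depth its lines did not overlap, but its log2 fold change of -1.30 (standard error 0.43) had an adjusted p of 0.0576 in edgeR's test. Of its exon bases, 3.68% are shared with Gm49395 on the same strand.

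Itga10, a collagen-binding subunit known from cartilage, had 24, 32 and 19 counts in MPC and 55, 29 and 25 in MPC-PTX, and its lines overlapped in CPM. Its log2 fold change was 0.44 (standard error 0.33, adjusted p = 0.350, edgeR), and 0.19 without MPC replicate 3 (adjusted p = 0.655). Gm42957, which is also in the count table, shares 33.5% of the exon bases of Itga10 on the same strand, so the counts of both are uncertain. Itga11, a collagen receptor of fibroblasts, had 0 to 4 counts per library and was not tested.

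Among the laminin-binding subunits, Itga3 was the most abundant α subunit of both lines per kb of exon. Itga3, which forms the laminin receptor α3β1 of epithelia (chromosome 11, 95044474 to 95076801), had 889, 785 and 731 CPM in MPC and 665, 652 and 653 CPM in MPC-PTX. The lines did not overlap, and Itga3 fell by 0.29 on the log2 scale (standard error 0.08, adjusted p = 0.0341, edgeR). The adjusted p rose above the threshold without MPC replicate 2 (0.0904) and without MPC-PTX replicate 1, 2 or 3 (0.109, 0.127 and 0.122). Itga6, which pairs with Itgb1 or with Itgb4 of hemidesmosomes, had 156, 204 and 245 CPM in MPC and 142.5, 144.5 and 147 CPM in MPC-PTX. Its lines did not overlap either, but its log2 fold change of -0.48 (standard error 0.15) had an adjusted p of 0.0540 in edgeR's test. Without MPC replicate 3, the highest library, the change was -0.37 with an adjusted p of 0.0202, and without MPC replicate 1 it was -0.63 with 0.00171. Itga7, a laminin receptor of muscle, had 3 to 13 counts per library and was not tested.

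Of the 3 tested α subunits that bind RGD proteins, 2 rose, Itga5 and Itga2b, beside 14.1% of all tested genes. Itga5, which with Itgb1 forms the classical fibronectin receptor α5β1 (chromosome 15, 103344286 to 103366763), had 14.7, 14.4 and 14.0 CPM in MPC and 19.6, 21.5 and 22.1 CPM in MPC-PTX. Every MPC-PTX library was above every MPC library, and Itga5 rose by 0.55 on the log2 scale (standard error 0.09, adjusted p = 0.00391, edgeR). Itga2b, the αIIb subunit of the platelet fibrinogen receptor (chromosome 11, 102453297 to 102470122), had 34, 37 and 15 counts in MPC and 100, 77 and 51 in MPC-PTX. That was 1.81, 1.91 and 0.721 CPM against 4.27, 3.47 and 3.03 CPM, so the lines did not overlap and MPC replicate 3 was the lowest of the 6. Itga2b rose by 1.30 on the log2 scale (standard error 0.34, adjusted p = 0.0260, edgeR), and by 0.91 without MPC replicate 3 (adjusted p = 0.00818). Without MPC-PTX replicate 1, 2 or 3 the adjusted p was 0.101, 0.0773 and 0.0585. The partner of Itga2b is Itgb3, which had 6 to 11 counts in every library.

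Itgav, the α subunit that pairs with 5 different β subunits, had 247, 306 and 422 CPM in MPC and 261.5, 266 and 272.5 CPM in MPC-PTX. Its lines overlapped, and its log2 fold change was -0.29 (standard error 0.18, adjusted p = 0.279, edgeR). Without MPC replicate 3, the highest library, it was -0.11 (adjusted p = 0.337), and without MPC replicate 1, the lowest, it was -0.45 (adjusted p = 0.0487). With each library corrected for GC content and transcript length it was -0.39 with an adjusted p of 0.00087. Itga8, another RGD-binding subunit, had 0 counts in all 6 libraries, which allows up to 3 counts in a library, or 0.128 to 0.178 CPM.

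Of the 3 α subunits known from leukocytes, 1 was tested. Itgae, the αE subunit that binds E-cadherin, had 18, 15 and 44 counts in MPC and 51, 47 and 41 in MPC-PTX. In CPM the MPC libraries had 0.956, 0.773 and 2.11 and the MPC-PTX libraries 2.18, 2.12 and 2.44, with MPC replicate 3 beside the MPC-PTX libraries. Its log2 fold change was 0.79 (standard error 0.36, adjusted p = 0.147, edgeR), and 1.31 without MPC replicate 3 (adjusted p = 0.00306). Itga4 and Itga9 had 0 or 1 count in every library and were not tested.

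Of the 6 tested β subunits, 2 fell and 0 rose in edgeR's test, beside 15.6% and 14.1% of all tested genes. At an unadjusted p below 0.05 or by DESeq2, 0 were higher. Itgb1 lay at the threshold, with an unadjusted p of 0.0513 in edgeR's test, and was called higher in some alternatives given below. Itgb6, the epithelial subunit of αvβ6, a receptor that binds latent TGF-β (chromosome 2, 60598292 to 60722643), had 87.7, 112 and 112 CPM in MPC and 51.5, 49.6 and 50.1 CPM in MPC-PTX. The lines were far apart and the 3 MPC-PTX libraries agreed within 2 CPM. Itgb6 fell by 1.04 on the log2 scale (standard error 0.11, adjusted p = 0.000518, edgeR), and by 0.99 to 1.15 with any 1 library left out. Itgb2, the β subunit of leukocyte integrins (chromosome 10, 77530252 to 77565708), had 5.31, 6.03 and 5.48 CPM in MPC and 2.05, 2.48 and 1.84 CPM in MPC-PTX. Its lines did not overlap, and it fell by 1.39 on the log2 scale (standard error 0.16, adjusted p = 0.000993, edgeR). Its partners Itgal, Itgam, Itgax and Itgad summed to 0.0516 to 0.213 CPM in MPC and 0.0451 to 0.178 CPM in MPC-PTX, with Itgad at 0. The summed leukocyte markers given above were lower in MPC-PTX as well, mostly through Cd68, at 11.5 against 9.47 CPM (adjusted p = 0.0978, edgeR). Markers with few counts went either way, Ptprc from 0.166 CPM in MPC to 0.260 in MPC-PTX and Laptm5 from 0.420 to 0. The part of leukocyte RNA in the level of Itgb2 was not tested.

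Itgb1, the common partner of most α subunits here, was the most abundant integrin gene per kb of exon in both lines. It had 672.5, 712.5 and 864 CPM in MPC and 880.4, 871 and 879 CPM in MPC-PTX (chromosome 8, 128685654 to 128733200). The lines did not overlap, though MPC replicate 3 lay within 10 CPM of the lowest MPC-PTX library. Its log2 fold change was 0.23 (standard error 0.097, adjusted p = 0.124, edgeR), 0.29 without MPC replicate 3 (adjusted p = 0.00057) and 0.20 with the correction for GC content and length (adjusted p = 0.00749). The median of the 663 tested genes on chromosome 8 was 0.26, and whether the level of Itgb1 moved apart from its chromosome was not tested.

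Itgb4, the hemidesmosome subunit, had 242.5, 229 and 216 CPM in MPC and 224, 218 and 226 CPM in MPC-PTX. Itgb5, which pairs with Itgav in a vitronectin receptor, had 295, 319 and 275 CPM in MPC and 283, 278 and 276 CPM in MPC-PTX. The lines overlapped for both, with log2 fold changes of -0.04 for Itgb4 (adjusted p = 0.642) and -0.09 for Itgb5 (adjusted p = 0.387, edgeR). Without MPC replicate 3 these were -0.14 (adjusted p = 0.0283) and -0.19 (adjusted p = 0.0117). Itgb8, another partner of Itgav in binding latent TGF-β, had 9, 5 and 12 counts in MPC and 13, 24 and 13 in MPC-PTX, and differed by 0.86 on the log2 scale (standard error 0.42, adjusted p = 0.165, edgeR). Its lines overlapped in CPM. Itgb7, the partner of Itgae, had 4 to 14 counts per library and was not tested, nor was Itgb3.

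The 14 α and 8 β subunits can form 20 known pairs. Both subunits were tested for 11 of these, 1 subunit for 8, and neither for Itga4 with Itgb7. Among the 11, 1 subunit was called for 4 pairs and neither for 7, and both were called for 0. Of all tested genes, 29.7% were called. The pairs reuse the same subunits, and Itgb6 was the only β subunit in them that was called. Both subunits could thus be called only for Itgav with Itgb6, so the 0 says little about pairs. Compared per kb of exon, the α subunit was the scarcer one in every Itgb1 pair. These α subunits share Itgb1, so comparing them with it singly does not show that Itgb1 exceeded them together. The pair whose scarcer subunit was highest was Itga3 with Itgb1, at 140 ± 14.1 CPM per kb in MPC and 115 ± 1.26 in MPC-PTX (SD, n = 3). Next came Itga2 with Itgb1, at 50.0 ± 13.2 CPM per kb in MPC and 25.3 ± 1.31 in MPC-PTX. Itgav stood at 30.2 ± 8.27 CPM per kb in MPC and 24.8 ± 0.51 in MPC-PTX. As shares of all α subunit RNA per kb, Itga2 exceeded Itgav in each MPC library: 15.6, 20.55 and 24.22% against 9.709, 11.77 and 15.01%. In MPC-PTX they were close, at 12.89, 14.22 and 13.5% against 13.06, 13.22 and 13.54%.

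Itgb6 was the scarcer subunit of its pair with Itgav, at 14.6 ± 1.94 CPM per kb in MPC and 7.09 ± 0.137 in MPC-PTX. Itga5 stood at 2.91 ± 0.0651 CPM per kb in MPC and 4.27 ± 0.258 in MPC-PTX beside an Itgb1 level of 184 ± 24.8 and 215 ± 1.24. Itga2b had 0.271 ± 0.121 CPM per kb in MPC and 0.658 ± 0.115 in MPC-PTX, and its partner Itgb3 was the scarcer subunit in both lines, at 0.0753 ± 0.0241 and 0.0663 ± 0.0182 (n = 3 throughout). The ratio of Itga2b to Itgb3 per kb was therefore 2.70 to 4.09 in MPC and 6.90 to 13.9 in MPC-PTX, on few counts of Itgb3.

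**Figure D3:**
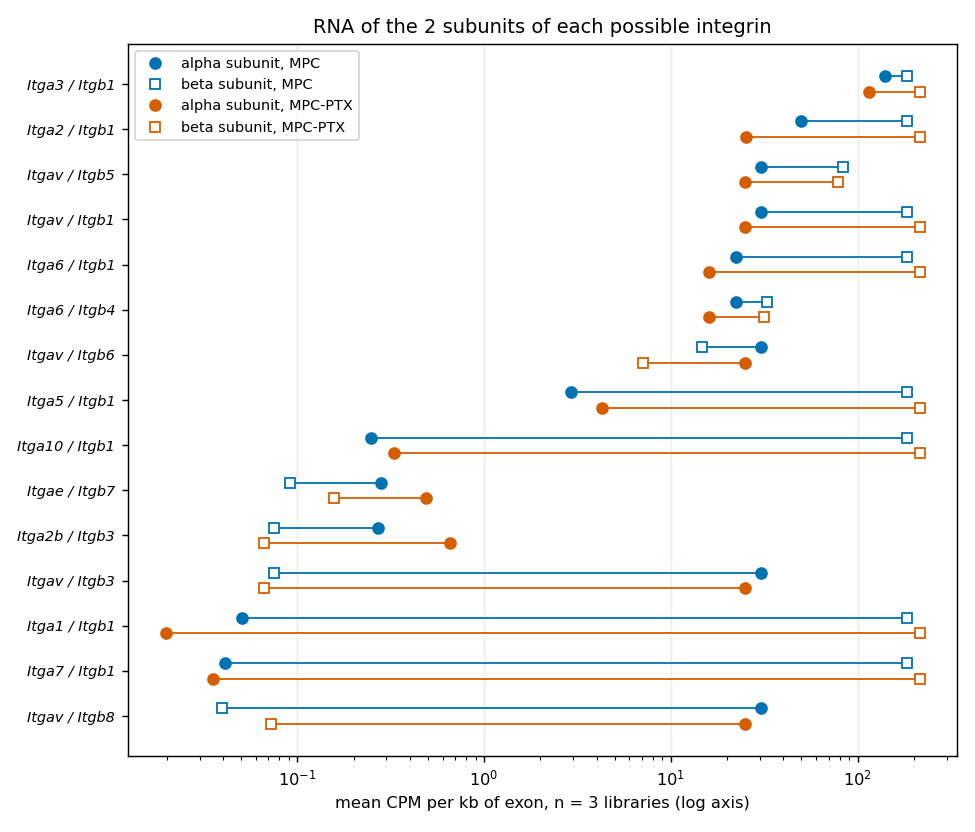
Mean CPM per kb of exon (log axis, n = 3 libraries) of the α subunit (filled circle) and the β subunit (open square) of 15 possible integrins whose subunits both had a count in every library, with MPC in blue and MPC-PTX in orange. The line between the points is the gap between partners: Itgb6 moved away from Itgav, from 14.6 to 7.09 CPM per kb, and Itga2b moved further above Itgb3.

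Shares within each class were taken per kb in each library, and with 3 libraries against 3 the exact two-sided permutation test cannot give a p below 0.1. No share had a lower p, before any adjustment over the shares, and 14 of the 26 shares of α subunits, β subunits and syndecans did not overlap between the lines. By CPM, 46.9% of all tested genes did not overlap. Shares in a class depend on each other, and some rest on few counts, such as Itgb7 with 4 to 14 per library. Itgb1 made up 57.9% ± 4.18 of the β subunits in MPC and 64.5% ± 0.175 in MPC-PTX (SD, n = 3), and Itgb6 made up 4.60% ± 0.417 and 2.13% ± 0.0269. Among the α subunits, Itga2 went from 20.1% ± 4.33 to 13.5% ± 0.665 and Itga5 from 1.18% ± 0.0866 to 2.28% ± 0.132, while Itga3 took 57.1% ± 8.42 and 61.5% ± 0.859 with overlapping libraries.

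Taking Itgb3, Itgb5, Itgb6 and Itgb8 as the partners of Itgav apart from Itgb1, a class chosen after the values were seen, Itgb6 went from 14.9% ± 1.98 to 8.26% ± 0.0813 and Itgb5 from 85.0% ± 1.97 to 91.6% ± 0.0756. The ratio of Itgb6 to Itgb5 per kb was 0.149, 0.175 and 0.203 in MPC and 0.0908, 0.0891 and 0.0906 in MPC-PTX. The lines did not overlap in this ratio, and its exact permutation p was the smallest possible, 0.1.

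**Figure D4:**
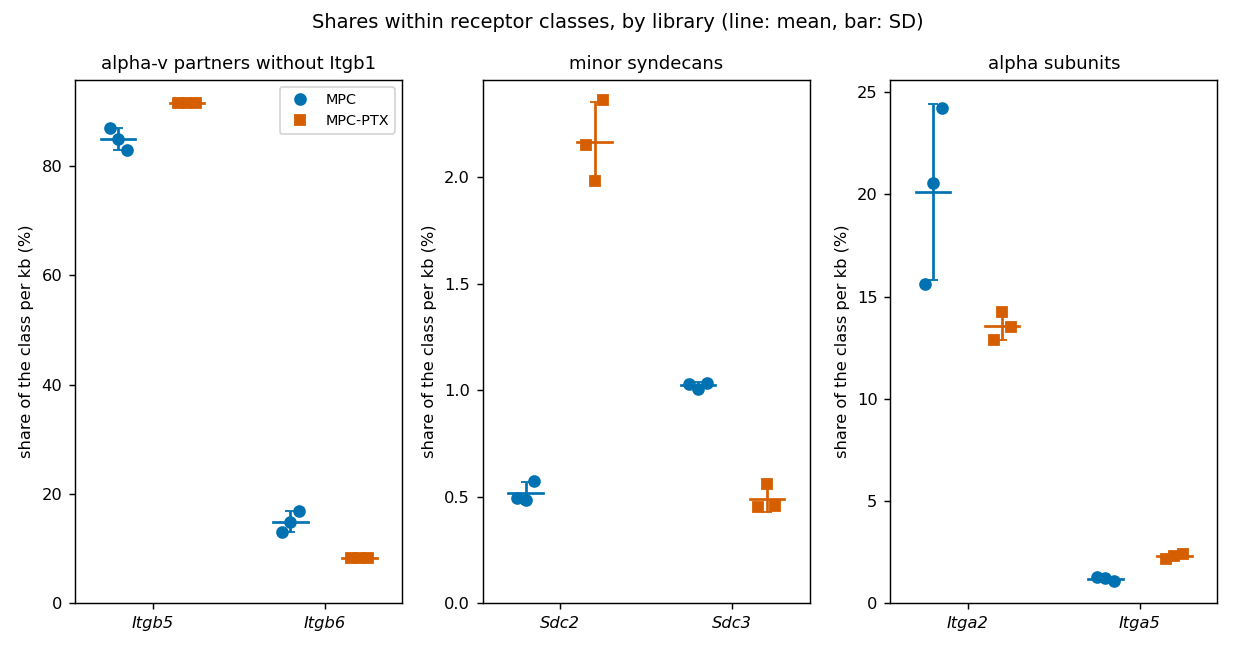
Share of a receptor class in percent per kb of exon (vertical axes from 0, each panel with its own scale), by library, with MPC as blue circles and MPC-PTX as orange squares, a line at the mean and a bar for the SD (n = 3). Itgb6 fell among the partners of Itgav from 14.9% to 8.26%, Sdc2 and Sdc3 exchanged their order among the syndecans, and Itga2 and Itga5 moved in opposite directions among the α subunits.

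All 4 syndecans differed between the lines, 1 higher and 3 lower, beside 14.1% of all tested genes that rose and 15.6% that fell. Sdc2, known from mesenchymal cells (chromosome 15, 32920723 to 33034935), had 5.63, 5.57 and 5.91 CPM in MPC and 18.4, 16.5 and 19.6 CPM in MPC-PTX. The lines were far apart, and Sdc2 rose 3.18-fold, by 1.67 on the log2 scale (standard error 0.11, adjusted p = 8.31e-05, edgeR). Sdc3, known from the nervous system (chromosome 4, 130792537 to 130826319), had 19.9, 19.7 and 18.1 CPM in MPC and 6.53, 7.89 and 6.42 CPM in MPC-PTX, and fell by 1.47 on the log2 scale (standard error 0.12, adjusted p = 0.000183, edgeR). Both calls also held against a log2 fold change of 1, the stricter test named glmTreat, where they were the only calls among the 24. The ratio of Sdc2 to Sdc3 per kb was 0.480, 0.480 and 0.555 in MPC and 4.78, 3.54 and 5.19 in MPC-PTX, so the order of the pair turned round.

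The abundant syndecans moved less. Sdc1, the main syndecan of epithelia (chromosome 12, 8771323 to 8793715), had 652, 607 and 535 CPM in MPC and 426, 416 and 415.5 CPM in MPC-PTX, and fell by 0.51 on the log2 scale (standard error 0.08, adjusted p = 0.00347, edgeR). Sdc4, which acts with Itga5 and Itgb1 on fibronectin (chromosome 2, 164424247 to 164443887), had 376, 414 and 374 CPM in MPC and 317.5, 306 and 305 CPM in MPC-PTX. It fell by 0.33 (standard error 0.06, adjusted p = 0.00839, edgeR), and the adjusted p was 0.0538 without MPC-PTX replicate 2 and 0.0522 without MPC-PTX replicate 3. The lines did not overlap for either gene. Together Sdc1 and Sdc4 made up nearly all syndecan RNA per kb in both lines: Sdc1 held 49.9% ± 2.60 in MPC and 46.3% ± 0.186 in MPC-PTX, Sdc4 48.5% ± 2.58 and 51.1% ± 0.249, and Sdc2 0.517% ± 0.0498 and 2.16% ± 0.191 (SD, n = 3).

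Among the other receptors, Dag1 fell and Cd47 rose. Dag1, which encodes both chains of the laminin receptor dystroglycan (chromosome 9, 108204634 to 108263958), had 412, 451 and 422 CPM in MPC and 300.5, 303 and 298 CPM in MPC-PTX. The lines did not overlap, and Dag1 fell by 0.51 on the log2 scale (standard error 0.06, adjusted p = 0.000883, edgeR). Cd47, the thrombospondin receptor that also signals to SIRPα on phagocytes (chromosome 16, 49800533 to 49915010), had 117, 109 and 117 CPM in MPC and 136, 143 and 139 CPM in MPC-PTX. It rose by 0.29 (standard error 0.06, adjusted p = 0.0114, edgeR). With the correction for GC content and length it was 0.14 with an adjusted p of 0.430, and leaving out MPC replicate 2 or MPC-PTX replicate 1, 2 or 3 gave adjusted p-values of 0.0533, 0.0518, 0.0723 and 0.0590.

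Cd44, the hyaluronan receptor, had 351, 391 and 398 CPM in MPC and 391, 392 and 380.2 CPM in MPC-PTX, and the lines overlapped at 0.03 on the log2 scale (standard error 0.07, adjusted p = 0.765, edgeR), a difference whose sign changed with the scaling. Ddr1, the epithelial collagen receptor kinase, had 155.5, 165.5 and 155 CPM in MPC and 143, 142 and 138 CPM in MPC-PTX. Its lines did not overlap, but the log2 fold change of -0.17 (standard error 0.06) had an adjusted p of 0.0625 in edgeR's test, of 0.0401 without MPC replicate 1 and of 0.00388 without MPC replicate 3. Cd36, a thrombospondin receptor and fatty acid carrier, had 14 to 28 counts per library, overlapping lines and a difference of 0.08 on the log2 scale (standard error 0.37, adjusted p = 0.885, edgeR). Ddr2, the collagen receptor kinase of mesenchymal cells, had 3 to 13 counts and was not tested.

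The matrix proteins these receptors bind were read from a list of 39 ligand genes, of which 27 were tested, 11 rose and 10 fell, beside 14.1% and 15.6% of all tested genes. Spp1, the RGD protein osteopontin, was the most abundant ligand per kb, with 1096 ± 118 CPM in MPC and 1399 ± 24.4 in MPC-PTX (SD, n = 3), a log2 fold change of 0.35 (adjusted p = 0.0198, edgeR). Its adjusted p was 0.0877 without MPC replicate 2 and 0.0687, 0.0796 and 0.0841 without MPC-PTX replicate 1, 2 or 3. Among the ligands beyond a log2 fold change of 1, Nid1, the basement membrane linker nidogen, fell by 3.02 (adjusted p = 0.00144), from 46, 33 and 48 counts to 4, 4 and 8. Ltbp1, which tethers latent TGF-β to the matrix, fell by 1.21 (adjusted p = 5.66e-05). In this group 4 collagen genes rose, Col4a3 by 1.49 (adjusted p = 0.00258), Col4a4 by 1.44 (0.00130), Col5a1 by 1.25 (0.00328) and Col6a1 by 1.59 (0.00946), all at under 10 CPM. Col6a1 had only 5, 8 and 6 counts in MPC and 20, 22 and 19 in MPC-PTX. It thus passed the filter on low counts only through MPC-PTX, the line where it was high.

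Named after its values were seen, Fn1, the fibronectin bound by α5β1, rose by 0.45 on the log2 scale (standard error 0.07, adjusted p = 0.00337, edgeR), from 2305 ± 140 CPM in MPC to 3143 ± 15.8 in MPC-PTX (SD, n = 3).

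Of 40 genes that link integrins to actin or signal from them, 37 were tested, 4 rose (10.8%) and 15 fell (40.5%), beside 14.1% and 15.6% of all tested genes. Flna, the actin crosslinker filamin A, was the most abundant per kb, with 2174 ± 152 CPM in MPC and 1606 ± 27.4 in MPC-PTX (SD, n = 3), and fell by 0.44 (adjusted p = 0.00431, edgeR). Actn1, the α-actinin of adhesion sites, fell by 1.19 from 816 ± 54.1 to 358 ± 6.76 CPM (adjusted p = 4.28e-05). Ptk2b, the focal adhesion kinase relative Pyk2, fell by 1.17 from 98.6 ± 5.70 to 43.7 ± 2.72 CPM (adjusted p = 0.000100).

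Parvb, the adaptor β-parvin, had 126, 107 and 157 counts in MPC and 5, 2 and 3 in MPC-PTX, a change of -5.31 on the log2 scale (standard error 0.29, adjusted p = 3.81e-05, edgeR), while its relative Parva had one of 0.11 (adjusted p = 0.154). Of the kindlins, Fermt2, the widely expressed kindlin-2, rose by 1.49 from 11.6 ± 0.597 to 32.6 ± 1.69 CPM (SD, n = 3, adjusted p = 5.12e-05, edgeR). Fermt1, the epithelial kindlin-1, was named after its values were seen and fell by 0.76 from 203 ± 34.7 to 119 ± 0.544 CPM (adjusted p = 0.00367). Ilk, the partner of the parvins, had 0 to 6 counts per library and was not tested, and 76.7% of its exon bases are shared with Taf10 on the other strand.

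The hemidesmosome list had 4 genes, of which 3 were tested and 0 were called by edgeR's test, 0 at an unadjusted p below 0.05 and 0 by DESeq2. Cd151, the tetraspanin that binds Itga3 and Itga6, was the most abundant per kb, with 158 ± 17.3 CPM in MPC and 158 ± 4.40 in MPC-PTX (SD, n = 3), a log2 fold change of -0.0035 (adjusted p = 0.980, edgeR) and of -0.14 without MPC replicate 3 (adjusted p = 0.0309). Dst, which encodes a plakin of hemidesmosomes, had 1098, 1565 and 3080 counts in MPC and 3179, 3431 and 2556 in MPC-PTX, and differed by 0.62 on the log2 scale (standard error 0.31, adjusted p = 0.183, edgeR). Without MPC replicate 3, the highest MPC library, it differed by 1.03 (adjusted p = 0.000967).

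Of 29 genes of the dystrophin complex and of the enzymes that build the sugar chains of dystroglycan, 23 were tested, 5 rose (21.7%) and 1 fell (4.35%), beside the same 14.1% and 15.6%. Dpm3, the most abundant of the list per kb, had a log2 fold change of -0.01 (adjusted p = 0.958).

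Of 20 partners and modifiers of syndecans, 18 were tested, 2 rose (11.1%) and 5 fell (27.8%), again beside 14.1% and 15.6% of all tested genes. Hpse, the heparanase that cuts heparan sulfate chains, rose by 2.59 (standard error 0.13, adjusted p = 2.97e-05, edgeR), from 111, 102 and 88 counts to 715, 664 and 545. Sdcbp and Sdcbp2, the syntenins that bind the tails of syndecans, fell by 1.34 (adjusted p = 4.06e-05) and 1.18 (adjusted p = 8.40e-05). Gpc4, a heparan sulfate proteoglycan held by a lipid anchor, fell by 1.10 (adjusted p = 0.000359). Gipc1, another protein that binds syndecan tails and the most abundant of the list per kb, had a log2 fold change of -0.02 (adjusted p = 0.906), and of -0.16 without MPC replicate 3 (adjusted p = 0.0333).

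Of 11 partners of Cd44 and Cd47, 7 were tested, 1 rose (14.3%, beside 14.1% of all tested genes) and 3 fell (42.9%, beside 15.6%). Ezr, the membrane-actin linker ezrin and the most abundant of the list per kb, fell by 0.44 (adjusted p = 0.00258, edgeR), from 590.3 ± 36.5 to 436 ± 1.36 CPM (SD, n = 3). None passed a log2 fold change of 1. The summed epithelial markers given above were lower in MPC-PTX beside these receptor and adaptor genes, and their part in the levels was not tested.

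**Figure D5:**
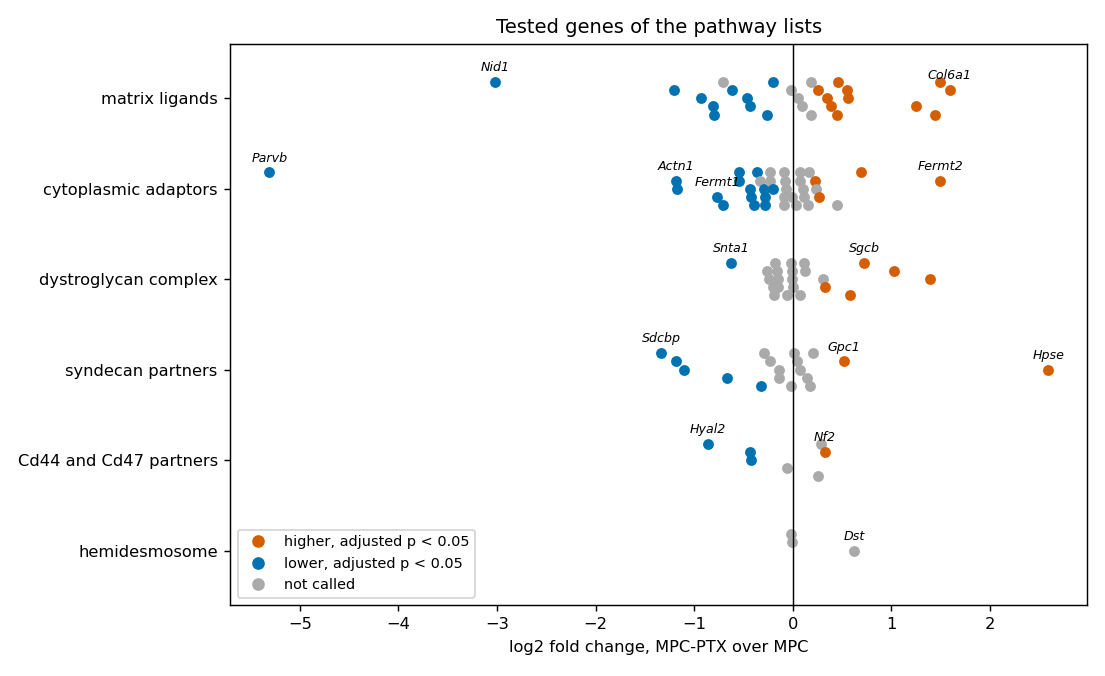
Log2 fold change of MPC-PTX over MPC (horizontal axis) for each tested gene of 6 lists of ligands and partners (rows), with orange for higher, blue for lower and grey for not called. The ligands held 11 genes that rose and 10 that fell, the adaptors 4 and 15 with Parvb at -5.31, and the syndecan partners ranged from Sdcbp at -1.34 to Hpse at 2.59.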

How the data were processed

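The authors extracted poly-A RNA, trimmed the reads (fastp 0.22.0), aligned them with HISAT2, and deposited unnormalized read counts of every gene, 1 column a library. The genome build, annotation, counting tool and use of strand are not given in the sources used here, so counts of overlapping genes are uncertain. Values of the series table and those of the 6 single-library tables differed in 0 values, and 0 rows lacked a gene name.

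From the deposited counts, libraries were scaled with TMM, low genes dropped by filterByExpr with the lines as groups (minimum count 10), and 11795 genes tested with edgeR 4.0.16 (R 4.3.3; glmQLFit with robust estimation, glmQLFTest), with Benjamini-Hochberg adjustment over all of them. Where a printed adjusted p names no tool, it is from this edgeR fit. The fit was tested on simulated data, where a larger share of its calls than the 5% threshold were of unchanged genes. A replicate number was not used as a block. Total counts per library ran from 16574580 to 23148182, and floors for a count of 0 (3 counts) cover counting error only. CPM use the TMM-scaled library size. Exon lengths (the union of exons) and positions were those of GENCODE M21 (GRCm38), joined on the Ensembl identifier for 21851 of 21959 genes, and promoter windows from RefSeq.

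The members, lists and tests were chosen with earlier results of these data known. All 32 receptor genes are named, and of the other lists the genes with both an adjusted p below 0.05 and a change beyond 1 on the log2 scale, and the most abundant gene per list. Some genes that meet this rule, and some markers, are not reported here. The alternatives were DESeq2 1.42.0 or its size factors, the library size alone, no filter, 10 counts in all samples, and replicate numbers as blocks. Others were a loess correction for GC content and transcript length (R's loess function, span 0.3) and glmTreat against a log2 fold change of 1. The last were other gene lengths for the shares, and each library left out in turn.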

Additional observations from a re-analysis of the deposited data

How the results depend on the processing

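Of the 12 called receptor genes, 8 kept an adjusted p below 0.05 in every alternative but glmTreat. Against a log2 fold change of 1, glmTreat left 1 receptor gene higher (Sdc2) and 1 lower (Sdc3), 138 genes higher and 255 lower over all genes, 0 and 1 ligands, 1 and 1 adaptors, 0 and 0 dystroglycan genes, 1 and 1 syndecan partners, and 0 and 0 partners of Cd44 and Cd47. The correction for GC content and length gave 2623 genes higher over all genes (2618 with the block), 1 hemidesmosome gene higher and 1 lower (with the block 1 and 1), 3 dystroglycan genes lower (4 with the block) and 2 partners of Cd44 and Cd47 higher (2 with the block). At least 10 counts in every sample left 246 genes higher and 338 lower by the rule of the study's methods, against 445 and 512, on fewer genes tested. The median log2 fold change of the receptor genes was -0.17 with DESeq2's test, -0.17 with its size factors, -0.0907 with library size alone and -0.064 with no filter, which adds low genes.

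With 1 library left out, receptor genes called higher ranged from 2 to 6 and lower from 6 to 12, and the median from -0.163 to -0.0939. Over all genes, 803 to 3020 were higher and 1077 to 3227 lower, the highest counts without MPC replicate 3 (3020 and 3227). Adaptors called higher ranged from 2 to 6, hemidesmosome genes from 0 to 1 in each direction, dystroglycan genes from 2 to 6 higher and from 1 to 4 lower, syndecan partners from 1 to 3 higher and 4 to 9 lower, and partners of Cd44 and Cd47 from 1 to 2 higher. Leaving out some single library took the adjusted p to 0.05 or above for 6 of the 21 called ligands, 7 of the 19 adaptors, 3 of the 6 dystroglycan genes, 2 of the 7 syndecan partners and 0 of the 4 partners of Cd44 and Cd47. The cause was not tested. The sign of 2 genes that were not called changed: Cd36 was -0.0926 with the correction for GC content and length and -0.0929 with it and the block, and -0.13 to 0.40 with 1 library left out. Cd44 was -0.00577 with DESeq2's test, -0.00577 with its size factors, -0.0032 with 10 counts in every sample, -0.0555 with the correction, -0.0498 with the correction and the block, and -0.0254 to 0.05001 with 1 library left out.

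With the replicate number as a block, 4 receptor genes were higher and 9 lower, Itga6 being added at an adjusted p of 0.0259, and over all genes 1787 were higher and 1717 lower (edgeR). The block also called 1 hemidesmosome gene higher. Deviations of same-numbered libraries correlated by 0.151, -0.0227 and 0.173 for replicates 1, 2 and 3. MPC replicates 1 and 3 correlated best with the MPC-PTX library of their own number, and MPC replicate 2 with MPC-PTX replicate 1 (0.153). Whether same-numbered libraries were handled together is not in the labels. Low counts limit Itga1, Itga2b, Itga10, Itgae, Itgb8 and Cd36, and the 8 receptor genes under the filter could not be compared.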
